A study of Mus musculus with 16 samples.

Results

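The RNA-Seq libraries described here were made from splenic memory CD4+ T cells, and 9 genes that such cells are not known for were followed through them. Of the 56748 genes in the deposited tables, these are 5 genes of the B cell lineage (Cd79a, Cd79b, Ms4a1, Ebf1 and Pax5) and 4 genes of MHC class II antigen presentation (Cd74, H2-Aa, H2-Ab1 and H2-Eb1). They were taken by gene name and followed as a sign of how pure the sorted cells were. The 16 samples fall into 4 groups of 4: HP1a KO and HP1a WT, and HP1g KO and HP1g WT. In the HP1a line the floxed Hp1a allele was excised in the germ line with CMV-cre, so that every cell of an HP1a KO mouse lacks the protein, and the HP1a WT mice were littermates from the intercross of heterozygotes. In the HP1g line all mice were homozygous for the floxed Hp1g allele, HP1g KO mice also carried Cd4-cre, which acts in T cells, and HP1g WT littermates did not. By this design B cells, dendritic cells and macrophages of the HP1g line should keep the gene, whereas those of HP1a KO mice should not. Deletion in these cells was not measured here. All mice were of mixed 129/Sv and C57BL/6 background and littermates were matched for sex. The paper states that male mice were used for its sequencing work. Cells had been enriched for CD4 by depletion of other cells and then sorted as CD4+CD25low/-CD62L-CD44high, with a stain for CD4, CD44, CD62L and CD25 that holds no antibody to a B cell or class II protein. The labels number the samples of a group but do not say whether each is 1 mouse, so that the spread between them may be partly technical.

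CD79A and CD79B (from Cd79a and Cd79b) form the signalling part of the B cell receptor, Ms4a1 encodes the surface protein CD20, and EBF1 and PAX5 are the transcription factors that set up and hold B cell identity. H2-Aa and H2-Ab1 encode the α and β chains of the mouse class II molecule I-A, H2-Eb1 encodes the β chain of I-E, and Cd74 encodes the invariant chain that accompanies class II molecules to the compartment where they load peptide. Class II genes are on in B cells, dendritic cells and many macrophages, under the coactivator CIITA, and mouse T cells, unlike activated human T cells, are not known to switch them on strongly. RNA of B cells brings both kinds of gene into a library, whereas RNA of dendritic cells and macrophages brings mainly the class II genes.

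Class II genes share a promoter layout in which an X box, bound by RFX proteins, lies upstream of a Y box, bound by NF-Y, and CIITA is held by the proteins on these boxes. RefSeq promoter windows (GRCm38.p6, 250 bases before to 50 after a start) were at hand for 5 of the 9 genes: H2-Aa, H2-Eb1, Cd79a, Pax5 and Ebf1. There was no entry for Cd74, H2-Ab1, Cd79b and Ms4a1. The 100 bases before the start are printed for the 2 class II genes, since these were the members whose windows held the boxes. Capitals mark GCAAC, the core of the X box, and CCAAT, the Y box, which on the other strand reads ATTGG.
H2-Aa, chr17:34506798-34506897, minus strand: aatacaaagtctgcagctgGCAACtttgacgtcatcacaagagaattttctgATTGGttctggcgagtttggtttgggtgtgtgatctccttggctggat
H2-Eb1, chr17:34524741-34524840, plus strand: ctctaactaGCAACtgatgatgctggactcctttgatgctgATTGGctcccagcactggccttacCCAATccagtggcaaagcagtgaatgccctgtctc
These positions are of GRCm39, where each window had 1 exact match on chromosome 17. The X box core began 81 bases before the start of H2-Aa and 91 bases before that of H2-Eb1, and the Y box on the other strand began 48 and 59 bases before it. H2-Eb1 had a further CCAAT 35 bases before its start. Such short words are common: on either strand, CCAAT was in 37.4% of the 32851 promoter windows of this length, GCAAC in 35.2%, and both in 13.7%. The B cell octamer ATTTGCAT, in 1.74% of windows, and the other words were not found in the windows of Cd79a, Pax5 and Ebf1.

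In GRCm39 the class II genes lie side by side on chromosome 17, with H2-Ab1 at chr17:34476663-34488393, H2-Aa at chr17:34493404-34506798 and H2-Eb1 at chr17:34504236-34535648. H2-Aa and H2-Eb1 are on opposite strands, and the annotated genes share 2563 bases. The libraries were stranded, but the strand setting of the counting is not given in the sources used here. Cd74 is on chromosome 18. Cd79a is at chr7:24596740-24601622, Cd79b at chr11:106202167-106205588, Ms4a1 at chr19:11227039-11243605, Pax5 at chr4:44524757-44710487 and Ebf1 at chr11:44508138-44898918. All 9 are annotated as protein-coding.

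The libraries held between 26694045 and 40199637 counts. The T cell genes were high in all of them: the 11 genes of a T cell list (Cd3e, Cd4, Lck and others) summed to between 9479 and 11582 TPM, a share of all transcripts that allows for transcript length. Cd8a and Cd8b1 together stayed at or under 18.0 TPM. The targeted genes were lower in both KO groups than in their WT groups. Cbx3, which encodes HP1g, was at 45.4 to 49.3 CPM (counts scaled to library size) in HP1g KO and 73.4 to 91.9 in HP1g WT, with no overlap. Cbx5, which encodes HP1a, was at 23.0 to 29.2 CPM in HP1a KO and 33.9 to 54.6 in HP1a WT, again with no overlap. In the HP1g line, where it was not targeted, Cbx5 was at 19.7 to 29.7 CPM in KO and 26.9 to 37.2 in WT. A low Cbx5 level was therefore not particular to HP1a KO. Cbx3 was at 69.2 to 89.8 CPM in HP1a KO and 75.8 to 113 in HP1a WT.

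All 9 genes were detected in all 16 libraries, but at very different levels. Among the class II genes, Cd74 was highest, with 93.7 to 631 TPM and a median of 253, followed by H2-Ab1 (29.4 to 237, median 102), H2-Aa (28.9 to 215, median 81.5) and H2-Eb1 (20.7 to 176, median 73.0). The B cell genes were far lower per length: Cd79b had 3.25 to 9.23 TPM, Cd79a 1.47 to 9.06, Pax5 0.220 to 1.90, Ms4a1 0.144 to 0.922 and Ebf1 0.00802 to 0.562. In counts, Ebf1 rested on 1 to 38 reads per library and Ms4a1 on 9 to 65, whereas Cd74 rested on 2498 to 16240. In these bulk samples, fewer cells of a type and less RNA per cell cannot be told apart.

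**Figure D1:**
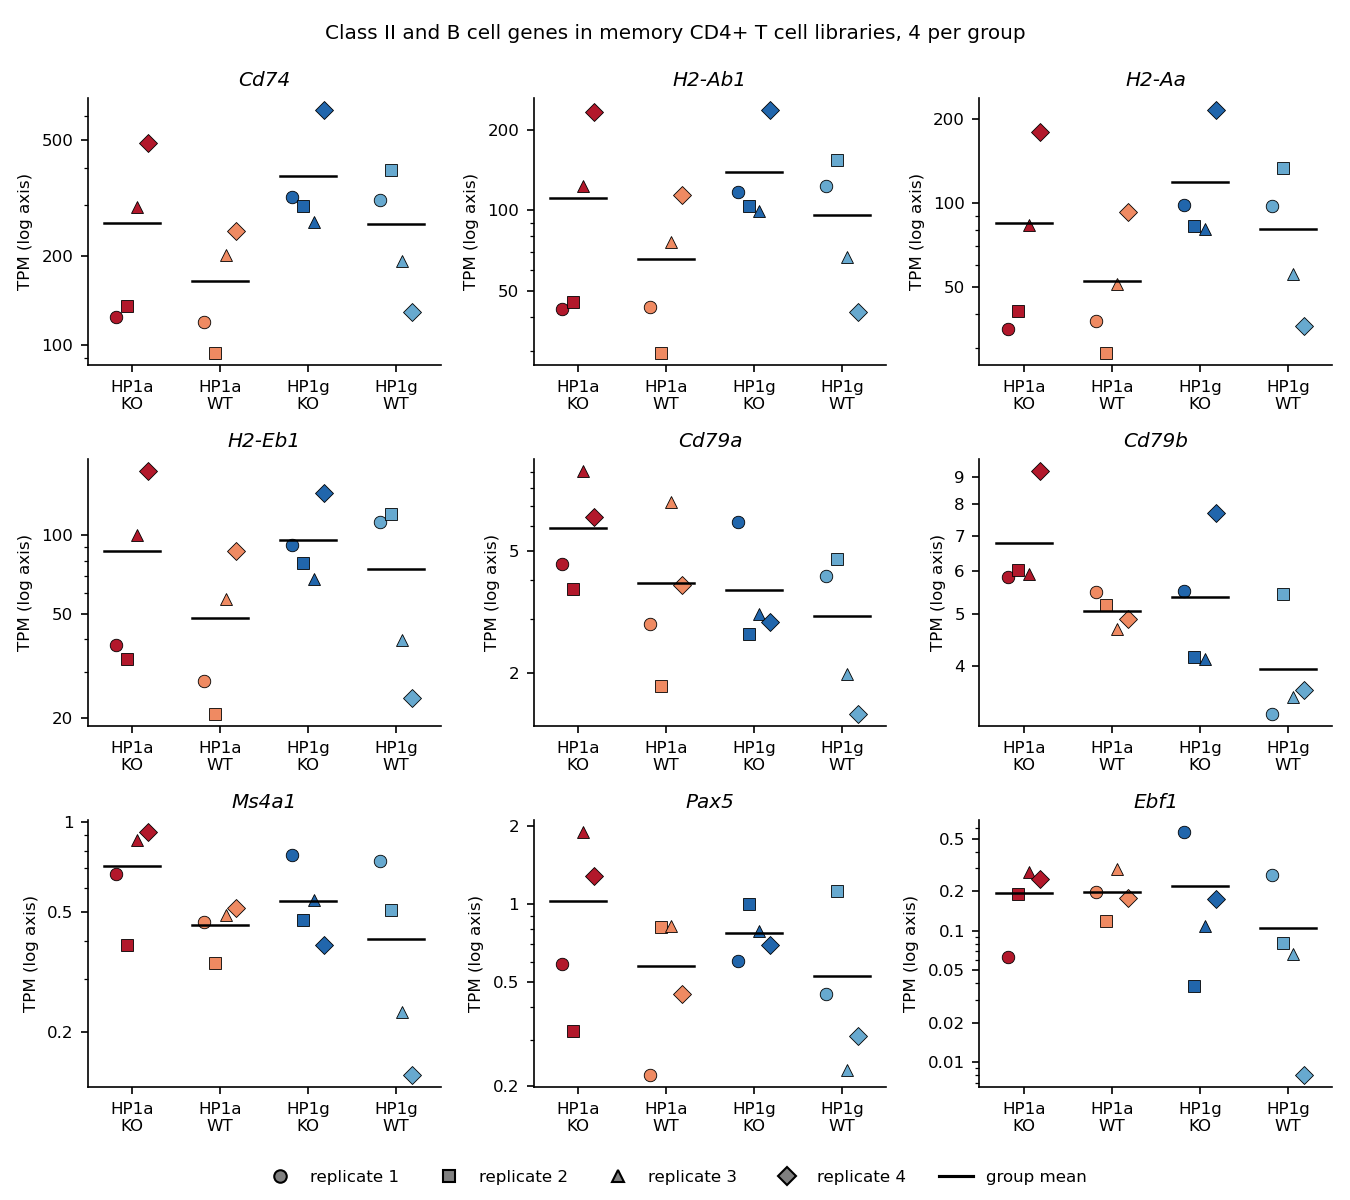
TPM (log axis, a separate scale in each panel) of the 9 genes in the 16 libraries, with 1 symbol per library, symbol shape for the replicate number, and bars for group means (n = 4). The 4 class II panels show much the same order of libraries, with HP1g KO replicate 4 and HP1a KO replicate 4 at or near the top, whereas Cd79a is highest in replicate 3 of both HP1a groups.

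The spread within groups was wide for the class II genes. In HP1a KO, H2-Ab1 measured 42.8, 45.4, 124 and 233 TPM in replicates 1 to 4, a mean of 111 ± 89.3 (SD, n = 4). In HP1a WT it measured 43.6, 29.4, 76.3 and 114 TPM (65.9 ± 37.8), in HP1g KO 117, 104, 99.6 and 237 TPM (139 ± 65.2), and in HP1g WT 123, 154, 67.1 and 41.7 TPM (96.4 ± 51.1). HP1a KO replicate 4 and HP1g KO replicate 4 thus held about the same level, and every pair of groups overlapped.

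Cd74 was likewise highest in the libraries numbered 4 of both KO groups and lowest in HP1a WT replicate 2. It measured 124, 136, 294 and 486 TPM in HP1a KO, 119, 93.7, 203 and 244 in HP1a WT, 320, 297, 262 and 631 in HP1g KO, and 312, 394, 193 and 129 in HP1g WT. H2-Aa measured 35.3, 41.0, 83.0 and 180 TPM in HP1a KO, 37.7, 28.9, 51.2 and 92.5 in HP1a WT, 98.2, 82.3, 80.6 and 215 in HP1g KO, and 97.1, 134, 55.7 and 35.96 in HP1g WT. H2-Eb1 measured 38.1, 33.5, 100 and 176 TPM in HP1a KO, 27.6, 20.7, 57.2 and 87.1 in HP1a WT, 91.5, 78.3, 67.8 and 145 in HP1g KO, and 113, 120, 39.5 and 23.8 in HP1g WT. By group mean, all 4 class II genes came in the order HP1g KO, HP1a KO, HP1g WT and HP1a WT, and no neighbours in this order were apart in all samples.

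The B cell genes did not share that order. Cd79a measured 4.53, 3.75, 9.06 and 6.42 TPM in HP1a KO (5.94 ± 2.37, SD, n = 4), 2.89, 1.81, 7.18 and 3.86 in HP1a WT (3.93 ± 2.32), 6.21, 2.67, 3.11 and 2.93 in HP1g KO (3.73 ± 1.66), and 4.14, 4.68, 1.99 and 1.47 in HP1g WT (3.07 ± 1.58). Its highest libraries were replicate 3 of HP1a KO and of HP1a WT. HP1g KO replicate 4, the highest for Cd74, H2-Aa and H2-Ab1, held 2.93 TPM of Cd79a, under the median of 3.804 over all libraries.

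Cd79b varied least of the 9, by 2.84 times from the lowest to the highest TPM. It measured 5.86, 6.05, 5.92 and 9.23 TPM in HP1a KO, 5.50, 5.20, 4.69 and 4.88 in HP1a WT, 5.50, 4.16, 4.11 and 7.71 in HP1g KO, and 3.25, 5.45, 3.496 and 3.60 in HP1g WT. Its 2 highest libraries were those that were highest for H2-Ab1.

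Ms4a1 measured 0.669, 0.388, 0.870 and 0.922 TPM in HP1a KO, 0.463, 0.339, 0.488 and 0.518 in HP1a WT, 0.773, 0.471, 0.549 and 0.388 in HP1g KO, and 0.739, 0.508, 0.234 and 0.144 in HP1g WT. Ebf1 was the lowest of the 9 genes and reached 0.562 TPM, from 24 counts, in HP1g KO replicate 1. Its lowest value was a single count in HP1g WT replicate 4, under the floor of 3 counts below which a level cannot be told from 0. Both genes, like Cd79a, were lowest in HP1g WT replicate 4. Pax5 was highest in HP1a KO replicate 3 (1.90 TPM) and lowest in HP1a WT replicate 1 (0.220 TPM).

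Across the 16 samples the class II genes varied together far more closely than the B cell genes did. The correlations that follow are descriptions over 16 libraries, which share the sort and the library method. The B cell genes rest on far fewer counts, with 1 to 38 per library for Ebf1 and 9 to 65 for Ms4a1. H2-Eb1, the lowest class II gene, had 463 to 4101. Sampling noise at low counts lowers r, and how much of the difference in r comes from counts was not tested. On log2(CPM + 0.5), the 6 pairs of class II genes had Pearson r from 0.962 to 0.994, with a median of 0.984 (median Spearman rho 0.974). The 10 pairs of B cell genes had r from 0.308 to 0.855, with a median of 0.521 (median rho 0.441), and the 20 pairs of a B cell with a class II gene had r from 0.314 to 0.645, with a median of 0.472 (median rho 0.494). Over all 36 pairs the median was 0.509. The median r of a member with all tested genes lay between -0.0387 (Cd74) and 0.0596 (Cd79b), and the 95th percentile between 0.411 (Ms4a1) and 0.570 (Cd74). All pairs stood above those medians. The class II pairs also stood above that percentile, whereas some of the B cell and mixed pairs lay under it.

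Without the 2 libraries farthest from the median of the first gene of each pair, the medians were 0.981 for class II pairs, 0.379 for B cell pairs and 0.383 for mixed pairs. On deviations from the group means they were 0.985, 0.447 and 0.629. Within the B cell set, Cd79a went with Ms4a1 (r = 0.855) and Ebf1 (r = 0.831), less with Pax5 (r = 0.570), and Cd79b had its highest r with Ebf1 (0.543).

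**Figure D2:**
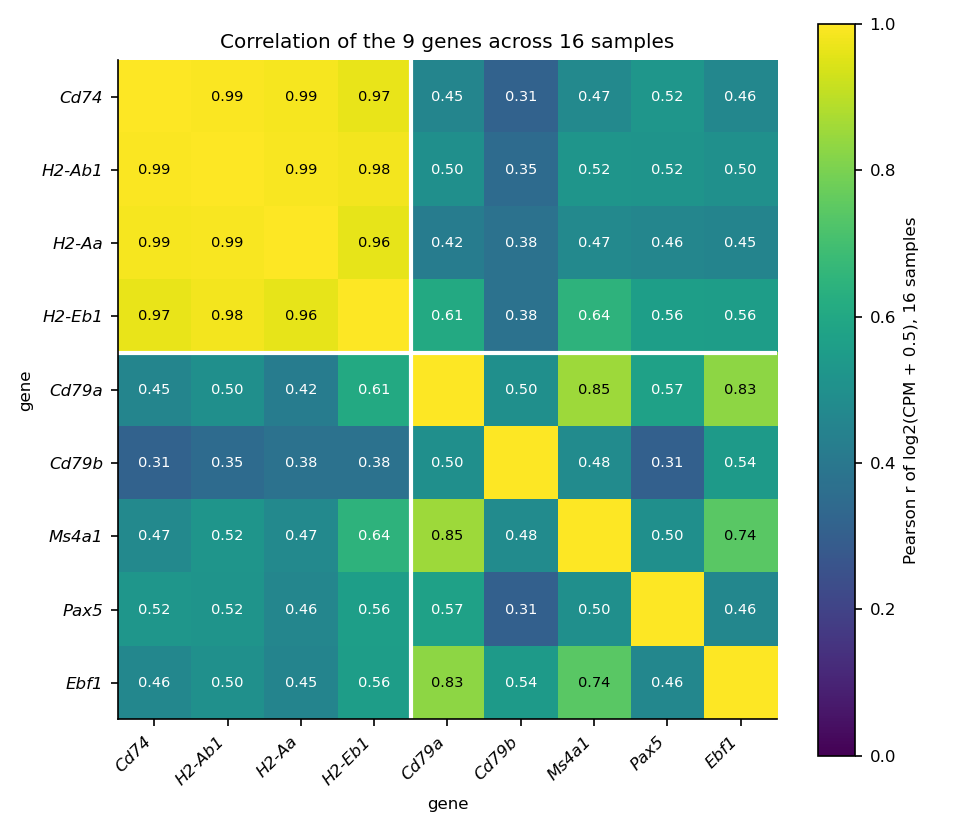
Pearson r of log2(CPM + 0.5) over the 16 samples for each pair of the 9 genes, by colour and number. The class II block at the upper left holds values of 0.96 and above, and the block of B cell with class II genes holds values from 0.31 to 0.64.

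The ratios between transcripts showed the same. The ratio of H2-Aa to H2-Ab1 in TPM was 0.671 to 0.982 over the 16 libraries, a range of 1.465 times, and that of Cd74 to H2-Ab1 was 2.09 to 3.18, a range of 1.52 times. H2-Eb1 to H2-Ab1 varied by 1.61 times. H2-Ab1 itself varied by 8.04 times. The ratio of Cd79a to H2-Ab1 varied by 8.53 times, from 0.0124 to 0.106, and that of Cd79a to Cd79b, whose proteins pair with each other, by 4.39 times. The class II genes thus kept a much steadier proportion to each other than Cd79a did to H2-Ab1.

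The genes nearest to H2-Ab1 among the 15776 tested were its 3 fellow class II members, followed by Itgax (r = 0.981), which encodes the dendritic cell integrin CD11c, Wdfy4 (r = 0.980), which serves cross-presentation in dendritic cells, Tns3 (0.980), the kinase gene Lyn (0.976), which myeloid cells and B cells use, Siglecg (0.963), Ciita (0.962) and Napsa (0.953). Among the genes nearest to Cd79a were Scd1 (r = 0.892), Igkc (0.885), the constant part of the κ light chain, Med10 (0.883), Lyz2 (0.871), the lysozyme gene of macrophages, Jchain (0.870), which joins the units of secreted antibody, 2610005L07Rik (0.867), Ms4a1 (0.855), Cr2 (0.841), the complement receptor of B cells, and Blk (0.835), a B cell kinase gene. The 2 lists had no gene in common.

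The other genes of the class II pathway did not all vary with the members. Over the 16 libraries Ciita varied by 8.75 times (0.403 to 3.53 TPM) and H2-DMb1, a chain of the peptide editor H2-DM, by 6.42 times (2.55 to 16.4 TPM). The factors that bind the boxes printed above varied much less in TPM: Rfx5 by 1.495 times, Rfxap by 1.36, Rfxank by 1.52, Nfya by 1.39, Nfyb by 1.34, Nfyc by 1.53 and Creb1, which binds beside the X box, by 1.72. Ctss, the protease that trims the invariant chain, was at 108 to 145 TPM in all libraries. H2-Ea, whose protein pairs with that of H2-Eb1 and which C57BL/6 mice do not transcribe, had 0 counts in all 16 libraries.

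B cell receptor and plasma cell genes were also present. Igkc ranged from 76.2 to 1135 TPM and was highest in HP1a KO replicate 3 (1135) and HP1a WT replicate 3 (645), which are also the highest for Cd79a. Jchain reached 55.5 TPM in HP1a KO replicate 3 and 33.0 in HP1a WT replicate 3, against a median of 13.4. Ighm was at 278 to 751 TPM. These are well above the TPM of Cd79a, and Ighd, the other heavy chain class of resting B cells, stayed at 1.40 to 3.47 TPM.

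To ask whether the members moved with markers of other cells, the summed CPM of 2 lists of non-member genes was entered as a term beside the group in an edgeR fit over 16 samples. A slope of 1 means that a gene doubles when the summed list doubles. The myeloid list has 17 genes of macrophages and dendritic cells (Lyz2, Siglech, Tyrobp, Itgax and others), all detected in every library, and summed to 118 to 249 TPM in HP1a KO, 101 to 198 in HP1a WT, 173 to 412 in HP1g KO and 102 to 220 in HP1g WT. Of 15759 genes tested outside the list, 78 (0.495%) had a positive slope with a Benjamini-Hochberg adjusted p under 0.05. All 4 class II members were among them: Cd74 (slope 1.23 ± 0.148 SE, adjusted p = 0.000544), H2-Ab1 (1.46 ± 0.191, adjusted p = 0.000886), H2-Aa (1.37 ± 0.186, adjusted p = 0.00121) and H2-Eb1 (1.52 ± 0.256, adjusted p = 0.00810). None of the 5 B cell members passed by edgeR, nor by limma on log2(TPM + 1), although 4 of them had an unadjusted p under 0.05 (background 6.45% of genes with a positive slope). Cd79a had a slope of 0.84 ± 0.286 (adjusted p = 0.298), Pax5 of 0.59 ± 0.245, Cd79b of 0.34 ± 0.128, Ebf1 of 1.01 ± 0.461 and Ms4a1 of 0.41 ± 0.305. Whether the slopes of the 2 kinds of member differ was not tested.

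A single library weighed on this result. HP1g KO replicate 4 had 109 TPM of Siglech, a gene of plasmacytoid dendritic cells, and 146 TPM of Tyrobp, an adaptor gene of myeloid cells, against medians of 14.2 and 35.0 TPM over all libraries. Without it, 344 of 16034 genes in the fit had such a slope (2.15%), the 4 class II members were still called, and Cd79a was called too (slope 1.15, adjusted p = 0.0290 by edgeR).

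**Figure D3:**
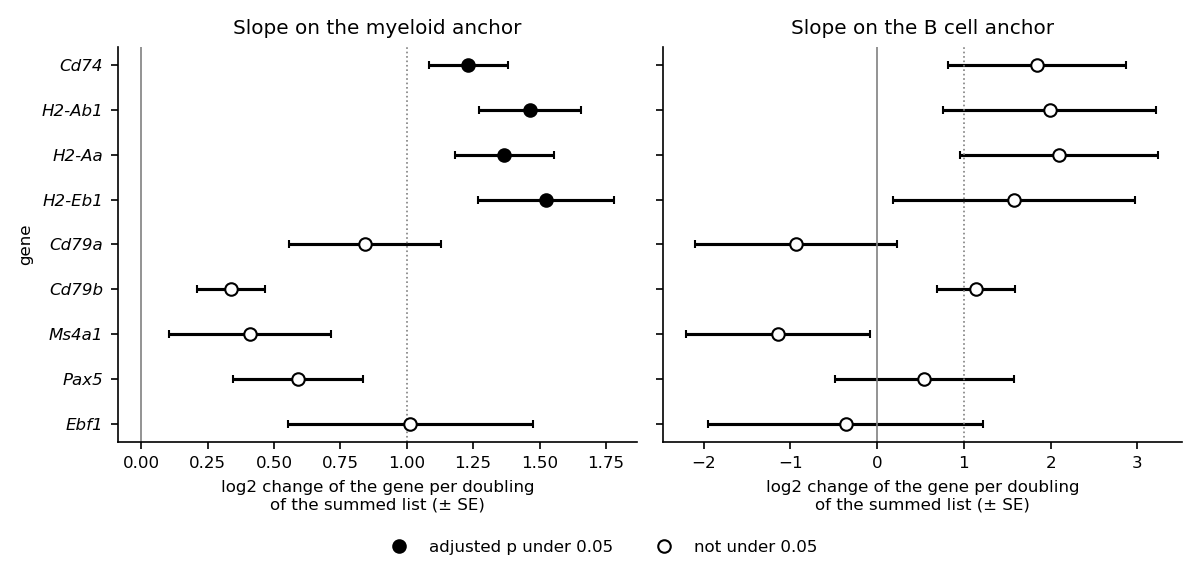
Slope of each member (log2 change per doubling of the summed list, ± SE, 16 samples) on the myeloid list (titled anchor) at the left and on the B cell list at the right; filled points have an adjusted p under 0.05 and dotted lines mark a slope of 1. The filled points are the 4 class II genes on the myeloid list, and no point is filled on the B cell list.

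A pair of shorter lists, chosen after seeing the data, then took the place of the myeloid list. With the 7 dendritic cell genes, 130 of 15769 genes had a called slope (0.824%). Cd74 (slope 0.88, adjusted p = 0.0119 by edgeR), H2-Aa (1.03, adjusted p = 0.00483) and H2-Ab1 (1.03, adjusted p = 0.0201) were called, H2-Eb1 was not (1.03, adjusted p = 0.115), and Cd79a had a slope of 0.34. With the 8 macrophage and monocyte genes, 262 of 15768 genes did (1.66%), a larger share than on the myeloid list, and all 4 class II members (slopes 1.23 to 1.65) and Cd79a (1.10, adjusted p = 0.0344 by edgeR) were called. As a description, log2 H2-Ab1 had r = 0.812 (rho 0.841) with the summed dendritic cell genes and r = 0.605 (rho 0.724) with the macrophage genes, whereas Cd79a had r = 0.0870 (rho 0.221) with the former and r = 0.809 (rho 0.776) with the latter. Without the 2 libraries farthest from the median of each list these were 0.769, 0.665, 0.221 and 0.811. On deviations from the group means H2-Ab1 had r = 0.8001 with the dendritic cell genes and 0.812 with the macrophage genes, so that the contrast for H2-Ab1 was not seen within groups, and Cd79a had 0.334 and 0.773. Each sum leaned on 1 gene: Lyz2 had a mean of 33.3 CPM (next Csf1r, 9.53) and Siglech 26.0 (next Itgax, 9.58). Gene by gene over all libraries, Cd79a had r from -0.0107 (Cd68) to 0.871 (Lyz2) with the 8 macrophage genes. With the 7 dendritic cell genes it had r from -0.180 (Siglech) to 0.542 (Itgax), so that the contrast for Cd79a did not hold for every gene.

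**Figure D4:**
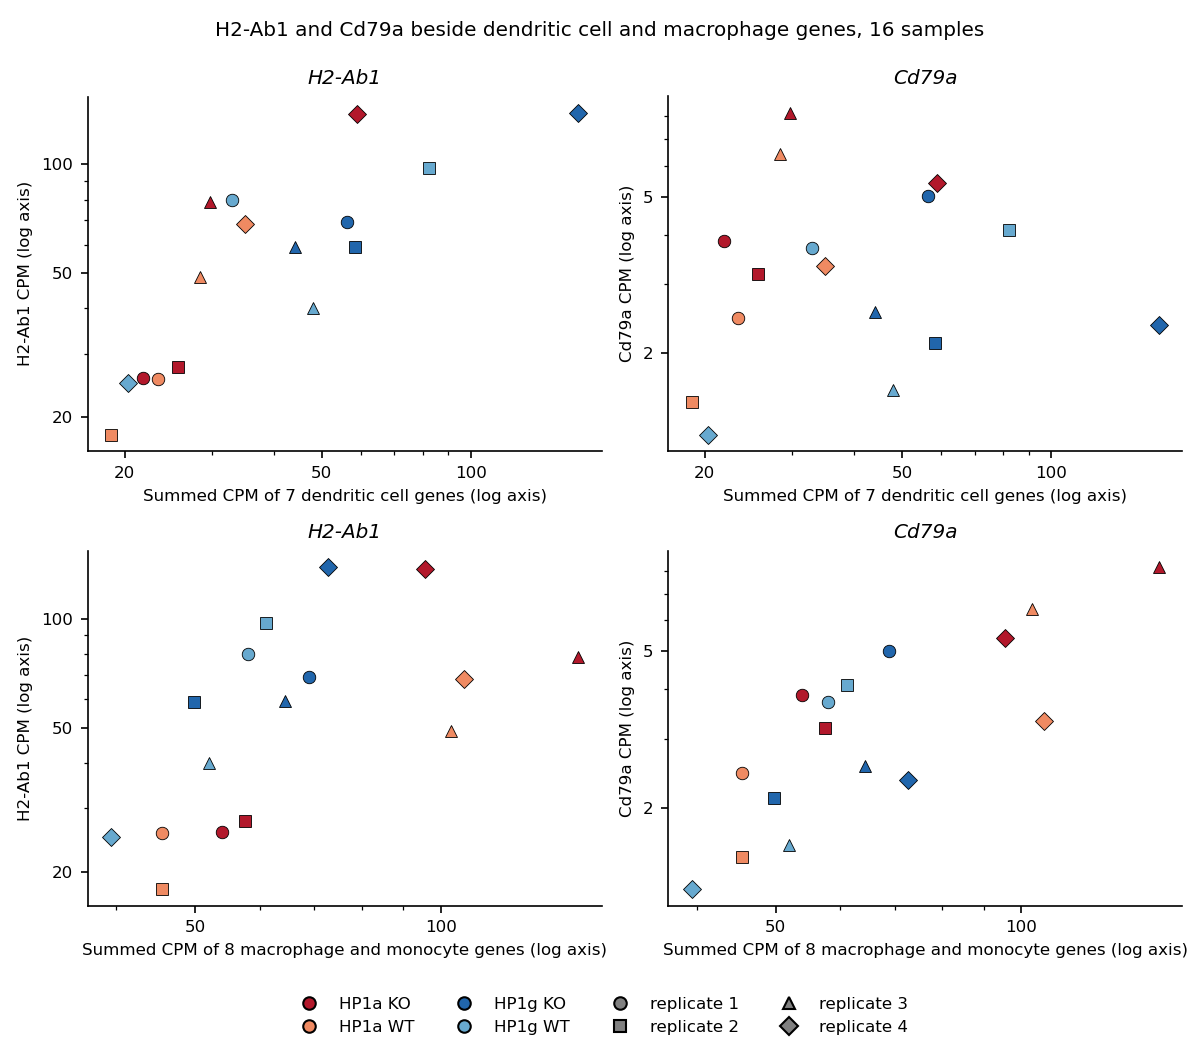
CPM of H2-Ab1 (left) and Cd79a (right) against the summed CPM of 7 dendritic cell genes (top) and 8 macrophage and monocyte genes (bottom) in 16 libraries, all axes logarithmic, coloured by group with symbol shape for the replicate number. Over all libraries H2-Ab1 has r = 0.812 with the dendritic cell genes and 0.605 with the macrophage genes, but 0.8001 and 0.812 within groups, and Cd79a has 0.0870 and 0.809; HP1g KO replicate 4 is the rightmost point of the upper panels and HP1a KO replicate 3 of the lower ones.

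The 12 non-member genes of the B cell list were all detected in every library, but 78.7% of its summed CPM came from 3 genes, which varied by 1.89 to 2.50 times in TPM: Cd22 (17.4 to 42.5 TPM), Pou2af1 (7.88 to 19.7 TPM) and Cd72 (15.6 to 29.5 TPM). On this list none of 15764 genes was called by edgeR (0%), no member among them, while 907 genes (5.75%) and, of the members, Cd79b (slope 1.14 ± 0.450, unadjusted p = 0.0226, adjusted p = 0.399) had a positive slope at an unadjusted p under 0.05. With each of the 12 genes given the same weight, which was chosen after seeing the data, 68 genes were called (0.431%), among them the 4 class II members (slopes 2.74 to 3.55) and none of the 5 B cell members. Cd79a then had a slope of 2.07 (adjusted p = 0.298 by edgeR), Ms4a1 of 1.53 and Ebf1 of 2.66. On the summed list these 3 had the other direction, with Cd79a at -0.94, Ms4a1 at -1.14 and Ebf1 at -0.36. Pax5 was there at 0.55, Cd74 at 1.84, H2-Aa at 2.10, H2-Ab1 at 1.99 and H2-Eb1 at 1.58. Spib of this list, which plasmacytoid dendritic cells also express, was highest in HP1g KO replicate 4 (19.1 TPM) and had r = 0.612 with H2-Ab1 and r = -0.0811 with Cd79a. The 3 genes that made up most of the sum also had negative r with Cd79a: Cd22 -0.0248, Pou2af1 -0.443 and Cd72 -0.184. Other genes of the list had positive r with Cd79a, among them Cr2 (0.841), Blk (0.835) and Fcmr (0.583). The summed list is thus a poor measure of the genes that vary with Cd79a.

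Of the 17 class II pathway genes that could be tested, Ciita (slope 1.497 ± 0.216, adjusted p = 0.00191 by edgeR) and H2-DMb1 (1.17 ± 0.135, adjusted p = 0.000490) rose with the myeloid list, and the list's median slope was 0.24 against a median of -0.000696 over all genes. The 4 most abundant genes of the list, Ctss, Nfyc, Rfxap and Ifi30, had slopes of 0.08, -0.0088, 0.11 and 0.25, none of them called. Of 9 testable B cell receptor genes, 3 were called on the myeloid list: Syk (1.17 ± 0.111), Lyn (0.88 ± 0.122) and Iglc3 (1.77 ± 0.210). Of 4 testable plasma cell genes, 1 was called, Mzb1 (1.31 ± 0.219, adjusted p = 0.00786), which plasmacytoid dendritic cells express as well.

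The comparisons between groups called none of the members. A gene was called where its log2 fold change was above 1 or below -1 and its adjusted p was under 0.05. Between HP1a KO and HP1a WT, edgeR called 0 of 14881 genes (0%), and DESeq2 called 3, none of them a member. All 9 members had a log2 fold change above 0 (background 50.9%), from 0.17 ± 0.443 SE for Pax5 to 0.84 ± 0.594 for H2-Eb1, with a median of 0.65 against 0.0026 over all genes. Between these lay Cd79a (0.60 ± 0.427), Ebf1 (0.63 ± 0.517), Cd74 (0.65 ± 0.459), Ms4a1 (0.67 ± 0.312), H2-Aa (0.69 ± 0.518) and H2-Ab1 (0.75 ± 0.564), besides Cd79b, which is described next. Their adjusted p by edgeR were 0.946 or above. Without HP1a KO replicate 4 the class II values were between 0.05 and 0.23. These 9 values are not independent, since the members vary together across libraries.

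Cd79b was the member that stood apart in the HP1a line. It measured 4.27, 4.21, 4.50 and 6.67 CPM in HP1a KO and 3.81, 3.77, 3.48 and 3.61 in HP1a WT, so that every KO sample was above every WT sample, as for 1.71% of tested genes. The log2 fold change was 0.42 ± 0.174, with an unadjusted p of 0.0359 (4.27% of genes were under 0.05) and an adjusted p of 0.946 by edgeR. Without HP1a KO replicate 4 the fold change was 0.24.

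Between HP1g KO and HP1g WT, edgeR called 35 of 14975 genes (0.234%) and none of the 8 members tested. All 8 had a log2 fold change above 0 (background 50.1%). Ebf1 was too low for the filter in this line (1 to 24 counts per sample, exact permutation p = 0.571, two-sided, 4 against 4). Pax5 had the largest difference, 0.82 ± 0.258, with an unadjusted p of 0.00981 (11.9% of genes were under 0.05) and an adjusted p of 0.310. In CPM it measured 2.97, 3.67, 3.13 and 3.38 in HP1g KO and 2.22, 2.66, 1.12 and 1.57 in HP1g WT, which do not overlap, as for 2.94% of tested genes. In TPM the same groups overlapped (0.606, 1.00, 0.791 and 0.697 against 0.452, 1.12, 0.229 and 0.310), and limma on log2(TPM + 1) gave a difference of 0.24 (adjusted p = 0.593). The class II members had log2 fold changes from 0.29 ± 0.471 (H2-Eb1) to 0.48 ± 0.423 (H2-Aa), with H2-Ab1 at 0.45 ± 0.410 and Cd74 at 0.46 ± 0.365. Without the 2 libraries numbered 4 of this line, a choice made after seeing the data, they were between -0.30 and -0.13, so that the direction rested on these libraries. Cd79a was at 0.19 ± 0.418, Cd79b at 0.32 ± 0.247 and Ms4a1 at 0.34 ± 0.470.

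Between the WT groups of the 2 lines, edgeR called 282 of 14804 genes (1.9%) and none of the 9 members, nor was any member under an unadjusted p of 0.05 (29.9% of genes were), by edgeR or by DESeq2. HP1a WT had lower class II values than HP1g WT (log2 fold changes from -0.66 ± 0.386 for Cd74 to -0.60 ± 0.466 for H2-Ab1) and higher values of the B cell genes (from 0.14 ± 0.457 for Ms4a1 to 0.55 ± 0.608 for Ebf1), with H2-Aa and H2-Eb1 at -0.62, Cd79b at 0.33, Cd79a at 0.34 and Pax5 at 0.46, so that 5 of 9 members were above 0 (background 52.1%), and the smallest adjusted p of a member was 0.277. The effect of the line and that of any batch cannot be told apart here. Each WT group also served as the control of its own KO group. No member had every HP1a WT sample above every HP1g WT sample, against 9.36% of tested genes. The effects of the 2 knockouts did not differ detectably for any member: the interaction in a fit of 16 samples called 5 of 15776 genes (0.0317%), none a member, and the smallest adjusted p of a member was 0.769 (Pax5, -0.64 ± 0.552). No member was under an unadjusted p of 0.05 in that test by edgeR (9.58% of genes were) or by DESeq2. The 8 other differences were above 0 (background 50.6%): 0.08 for Ebf1, 0.11 for Cd79b, 0.21 for Cd74, 0.22 for H2-Aa, 0.31 for H2-Ab1, 0.33 for Ms4a1, 0.42 for Cd79a and 0.56 for H2-Eb1. The standard errors of these differences were 0.30 to 0.98 on the log2 scale.

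**Figure D5:**
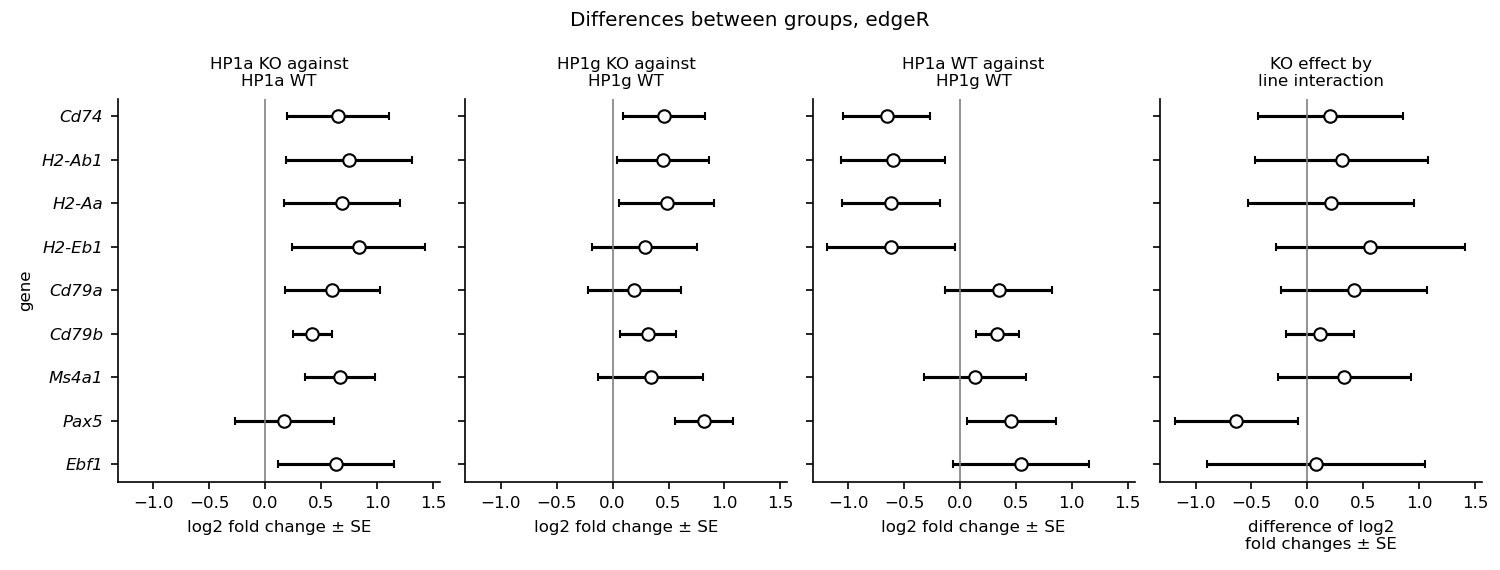
Log2 fold change (± SE, edgeR) of each member in the 3 group comparisons (4 against 4 samples) and, in the panel at the right, the HP1a effect minus the HP1g effect (16 samples). Open points have an adjusted p of 0.05 or above, which is all of those drawn; Ebf1 was not tested in the HP1g line.

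The called genes of the lists in the group comparisons were few. Of the 18 class II pathway genes, the 12 genes of the B cell list, the 17 of the myeloid list and the 10 of the B cell receptor list, none was called in any of the 4 comparisons by edgeR. Not every listed gene could be tested. Over all tested genes the called shares were 0% in the HP1a line, 0.234% in the HP1g line, 1.9% between WT groups and 0.0317% in the interaction. With shares this low, the lack of a call in short lists says little about them. Of the 4 plasma cell genes that could be tested, Sdc1, which encodes the surface protein syndecan-1, was called lower in HP1a WT than in HP1g WT (log2 fold change -1.69, adjusted p = 0.00403 by edgeR). That comparison called 1.9% of all tested genes. The other plasma cell genes were not called there, with Jchain at 0.75, Mzb1 at -0.39 and Derl3 at -0.21. The T cell, memory gate, CD8 T cell, NK cell, neutrophil and red cell lists had no called gene either. Red cell genes, which enter with blood, summed to 119 to 622 TPM in HP1a KO and 56.1 to 1704 TPM in HP1a WT. In the HP1g line they summed to 275 to 4199 TPM in KO and 142 to 1818 TPM in WT. The neutrophil list summed to 0.570 to 25.3 TPM in HP1a KO and 0 to 13.8 TPM in HP1a WT. In the HP1g line it summed to 0.503 to 127 TPM in KO and 0.290 to 34.3 TPM in WT. The part of either list in the levels of the members was not tested.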

How the data were processed

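Splenic memory CD4+ T cells were profiled by stranded mRNA sequencing, with reads aligned to GRCm39 by STAR and quantified by Salmon. The authors deposited gene-level estimated counts, of which 11.6% were not whole and were rounded here, and TPM values. Counts were tested with edgeR 4.0.16 (R 4.3.3; quasi-likelihood, TMM, filterByExpr with a minimum count of 10, Benjamini-Hochberg adjustment), each comparison in its own groups of 4 and slopes and interaction in all 16 samples. Correlations used log2(CPM + 0.5). DESeq2 1.42.0, limma 3.58.1 on log2(TPM + 1) and log2(TPM + 0.1), other filters and scalings, a replicate block and samples left out were the alternatives. Exact permutation tests were two-sided, and 4 against 4 samples cannot go below p = 0.0286. Scripts were tested on simulated data. Samples were grouped by the submitters' labels, whose treatment field describes another experiment and was not used. No 2 libraries of a group agreed within sampling noise. Since the labels do not name separate animals, p-values measure only the spread between these samples. Depth (26694045 to 40199637 counts per sample) limits Ebf1 and Ms4a1 most, which had the fewest counts.

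The members and the lists were chosen with earlier results of these data known. The text names all 9 members in each comparison, genes from the 10 nearest to Cd79a and to H2-Ab1 (1 item is not reported here), and up to 4 genes of a list by mean TPM; other list genes were named after their values were seen. Gene positions are from GENCODE on GRCm39. Figures were drawn with matplotlib 3.10.9.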

Additional observations from a re-analysis of the deposited data

Results flagged for a closer look

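In 5 of the 36 groups of 4 samples that were examined (9 genes in 4 groups), 1 sample lay far from the other 3 by Dixon's criterion, which chance alone meets in about 1 group in 20. HP1g KO replicate 4 had 416 CPM of Cd74 against 178 to 213 in the other HP1g KO samples. The same library had 129 CPM of H2-Aa against 49.3 to 59.5, and 139 CPM of H2-Ab1 against 59.0 to 69.2. These 3 genes vary together, so they are not separate observations. The library also had the highest Siglech and Tyrobp of all, whose part in its class II level was not tested. HP1g KO replicate 1 had 5.02 CPM of Cd79a, from 135 counts, against 2.12 to 2.55 in the others of its group. HP1a KO replicate 4 had 6.67 CPM of Cd79b against 4.21 to 4.50.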

How the results depend on the processing

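No member was called in any of the 4 group comparisons under any alternative run, including each sample left out (0 to 0 members). Of 634 log2 fold changes of members recomputed, 590 kept their direction and 44 reversed, none of them past the threshold, and of 423 slopes 404 kept direction and call. On log2(TPM + 1) and log2(TPM + 0.1), limma gave Ebf1 -0.0036 and -0.046 in the HP1a line. In the interaction, log2(TPM + 1) gave Cd79b -0.013, Ebf1 -0.13, Pax5 0.069, Cd74 -0.057, H2-Aa -0.091 and H2-Ab1 -0.029, and log2(TPM + 0.1) gave Cd79b -0.031, Ebf1 -0.58, Cd74 -0.057, H2-Aa -0.091 and H2-Ab1 -0.029. Without the libraries numbered 4, chosen after seeing the data, the HP1g line gave Cd74 -0.13, H2-Aa -0.21, H2-Ab1 -0.19 and H2-Eb1 -0.30. The cause was not tested.

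With 1 sample left out at a time, Pax5 ranged from -0.26 to 0.54 in the HP1a line, Cd79a from -0.17 to 0.48 and H2-Eb1 from -0.018 to 0.62 in the HP1g line, and Cd79a from -0.16 to 0.63 and Ms4a1 from -0.14 to 0.59 between the WT groups. In the interaction, Cd74 ranged from -0.27 to 0.55, Cd79b from -0.081 to 0.32, Ebf1 from -0.52 to 0.66, H2-Aa from -0.42 to 0.64, H2-Ab1 from -0.31 to 0.70, H2-Eb1 from -0.041 to 1.01 and Ms4a1 from -0.13 to 0.61. On the B cell list, the slope of Cd79a ranged from -1.46 to 0.039 and that of Ebf1 from -1.93 to 1.81.

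On the myeloid list, 4 to 5 members were called with 1 sample left out, and 3 with limma, where H2-Eb1 had a slope of 1.43 (adjusted p = 0.0621). Without both KO libraries numbered 4, chosen after seeing the data, 5 were called, with Cd79a at 1.23. In that setting 346 of 15939 genes were called, against 78 in the main fit. On the B cell list, Ebf1 had a slope of 0.33 without the group term, and limma gave Pax5 -0.10 and H2-Eb1 -0.24. With equal weights, chosen after seeing the data, 4 members were called among 68 of 15764 genes, and Cd79a was at 2.07, Ms4a1 at 1.53 and Ebf1 at 2.66. The median correlation of the 36 pairs was 0.439 to 0.575 with 1 sample left out.

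Counts over all genes moved more. In the HP1g line, 35 calls became 90 with DESeq2, 18 with at least 10 counts in every sample, 18 with limma on log2(TPM + 1) and 20 without the libraries numbered 4. Between the WT groups 282 calls became 102 with limma on log2(TPM + 1), and 122 without HP1g WT replicate 1. In the interaction 5 became 34 with DESeq2, 11 without a filter, 3 with the stricter filter and 8 with limma on log2(TPM + 1). On the myeloid list 78 became 143 without the group term, 40 with limma and 344 without HP1g KO replicate 4. In the HP1a line edgeR's 0 became 3 with DESeq2 and 1 without a filter.

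Over all genes, same-numbered samples deviated together only weakly (r from 0.0852 to 0.357 in the HP1a line, 0.0503 to 0.171 in the HP1g line, -0.201 to -0.0831 between WT groups), so the numbers were not taken to pair them. Over the 9 members alone r was 0.475, 0.757, 0.906 and 0.957 in the HP1a line and -0.513 to 0.116 in the HP1g line. In the HP1a line KO exceeded WT in TPM in all 4 same-numbered pairs for 5 of 9 members (Cd79a, Cd79b, Ms4a1, Cd74 and H2-Eb1), and in the HP1g line for 0 of 9. The share of all tested genes that did so was not computed. Since the members vary together, the 5 are not separate observations, and no effect of the knockout is read from them. With a replicate block, 0 members were called in the 4 comparisons and on the B cell list, where Ebf1 had a slope of 1.04. On the myeloid list the block left 4 members called, among 77 of 15759 genes. The smallest adjusted p of a member in the HP1a line was 0.163 with the block and 0.946 without it (edgeR). The block moved the calls between WT groups from 282 to 125.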
